A study of Mus musculus with 44 samples.

Results

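Satellite glial cells (SGCs) wrap the cell bodies of sensory neurons in the dorsal root ganglion (DRG), and 8 genes of potassium, glutamate and water handling were followed in them: Kcnj10, Atp1b2, Slc12a2, Slc1a3, Slc1a2, Glul, Slc38a3 and Aqp4. The genes were taken by symbol from the deposited tables. All 8 were among the 45882 genes of the table of naive libraries and of the table of SGCs after surgery, and 2 of them, Glul and Slc12a2, were among the 12170 genes of the neuron table. The data were bulk RNA sequencing libraries, 44 in all, from C57BL/6 mice without any allele or transgene named in the labels. Naive mice of 9 weeks gave 4 libraries of sorted SGCs and 4 of whole DRG. Mice of 9 to 11 weeks gave 4 SGC libraries 3 days after full ligation of the sciatic nerve and 4 after sham surgery, and the same numbers at 14 days. Neurons taken with magnetic beads 8 days after surgery gave 4 libraries from the ligated side and 4 from the opposite side of mice with a partial ligation, with no sex in their labels. A further 12 neuron libraries came from the operated side, 3 per sex after partial ligation and 3 per sex after sham surgery. The SGC and DRG libraries came from fixed ganglia L3 and L4, of which the DRG libraries were not sorted, and the neurons from unfixed ganglia L3 to L5. No label says whether libraries pool animals or share them, so p-values measure only the spread between these libraries, which may be technical.

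The glia around a firing neuron take up the potassium and transmitter that the neuron releases. Inwardly rectifying channels and the sodium pump carry the potassium, transporters of the Slc1 family carry the glutamate, and glutamine synthetase turns that glutamate into glutamine. Water follows the ions through aquaporin channels. In the trigeminal and dorsal root ganglia, Kcnj10 channels and glutamine synthetase are used to recognise satellite glia, and a loss of Kcnj10 current there has been studied in relation to nerve injury.

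RefSeq promoter windows (GRCm38.p6) were matched for 4 of the 8 genes, and the 250 bases before the start site are shown for 3, since Kcnj10 and Slc1a3 had alike profiles over the SGC libraries described below and Glul did not follow them. The Slc1a2 start site of that table lies 47779 bases inside the gene's GENCODE span, so its window is not shown. Every CG dinucleotide is in capitals. The Kcnj10 window is chr1:172340960-172341209 on the plus strand, the Glul window chr1:153899679-153899928 on the plus strand, and the Slc1a3 window chr15:8710808-8711057, read on the minus strand.
Kcnj10: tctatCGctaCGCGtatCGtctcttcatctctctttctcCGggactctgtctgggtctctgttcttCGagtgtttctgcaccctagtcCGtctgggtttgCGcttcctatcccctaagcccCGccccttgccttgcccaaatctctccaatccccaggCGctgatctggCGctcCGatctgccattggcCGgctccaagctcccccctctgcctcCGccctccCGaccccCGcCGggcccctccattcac
Glul: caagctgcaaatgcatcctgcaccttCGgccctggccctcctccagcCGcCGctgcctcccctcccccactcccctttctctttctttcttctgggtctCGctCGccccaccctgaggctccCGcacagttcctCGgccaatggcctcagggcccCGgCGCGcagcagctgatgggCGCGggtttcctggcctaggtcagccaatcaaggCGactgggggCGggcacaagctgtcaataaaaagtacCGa
Slc1a3: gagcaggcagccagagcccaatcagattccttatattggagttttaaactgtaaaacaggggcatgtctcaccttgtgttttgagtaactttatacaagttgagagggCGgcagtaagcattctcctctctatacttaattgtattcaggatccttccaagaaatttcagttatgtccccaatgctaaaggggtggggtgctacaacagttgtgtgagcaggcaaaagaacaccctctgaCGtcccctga
The Kcnj10 window held 17 CG and the Glul window 15, against 2 in the Slc1a3 window and a median of 6 over 32851 RefSeq promoters of that length. As many or more CG were found in 23.5% of those promoters for Kcnj10, 27.3% for Glul and 81.2% for Slc1a3. Alike profiles thus went with unlike base composition for Kcnj10 and Slc1a3, which describes the windows only.

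The first comparison set naive sorted SGCs against naive whole DRG and asks how far the 8 genes are concentrated in the glia. Levels are FPKM (fragments scaled by transcript length and library total, as the authors gave them), and limma gave differences in log2(FPKM + 1), called at a Benjamini-Hochberg adjusted p under 0.05 over all genes tested. All 7 genes that reached the filter of 1 FPKM in 4 libraries rose in SGCs, against a background of 44.9% of the 12907 genes tested that were called and 16.9% that were called higher. No library of DRG reached the lowest SGC library for any of the 7, a separation found in that direction for 16.7% of all genes. The median of the 7 differences was 1.40, against −0.12 over all genes tested. The summed level of 9 satellite glial markers was 18127 to 25663 FPKM in SGC libraries and 6586 to 10017 in DRG libraries, and that of 6 neuron markers was 74.8 to 238 and 1886 to 3143. Endothelial markers were also higher in the sorted libraries, with a sum over 5 genes of 82.1 to 181 FPKM in SGC and 29.9 to 76.2 in DRG libraries, and their part in the differences was not tested. In bulk RNA, more cells of a type and more RNA per cell cannot be told apart, and here sorting was also confounded with the group.

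Among the potassium genes, Kcnj10 (ENSMUSG00000044708, GRCm38 chromosome 1, 172341210 to 172374085, plus strand), the inwardly rectifying channel that carries glial potassium uptake, stood at 59.8, 59.9, 74.3 and 74.8 FPKM in the 4 SGC libraries. The DRG libraries held 24.1, 23.0, 24.3 and 31.9 FPKM. The lowest SGC library was thus well above the highest DRG library, and the log2 difference was 1.35 ± 0.15 (SE, 95% interval 1.01 to 1.69, n = 4 each, limma adjusted p = 0.000169). Atp1b2 (chromosome 11, 69599736 to 69605942), the glial beta subunit of the sodium pump, was the most abundant of the 8 at 229 ± 18.4 FPKM in SGCs and 86.9 ± 17.5 in DRG (SD, n = 4 each). It rose by 1.40 ± 0.16 (SE, 95% interval 1.05 to 1.76, limma adjusted p = 0.000175). Slc12a2 (chromosome 18, 57878678 to 57946821), the cotransporter that brings sodium, potassium and chloride into cells, stood at 87.3 ± 8.35 FPKM in SGCs and 31.8 ± 2.71 in DRG, and rose by 1.43 ± 0.12 (SE, n = 4 each, limma adjusted p = 4.97e-05).

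Among the glutamate genes, Slc1a3 (chromosome 15, 8634124 to 8710764), the transporter known as GLAST, stood at 29.1, 33.7, 41.2 and 41.3 FPKM in SGCs and 11.8, 12.1, 12.6 and 15.4 FPKM in DRG. It rose by 1.41 ± 0.16 (SE, 95% interval 1.06 to 1.76, n = 4 each, limma adjusted p = 0.000172). Slc1a2 (chromosome 2, 102658659 to 102790784), the main glutamate transporter of forebrain astrocytes, was far less abundant, at 2.51, 1.53, 2.83 and 1.43 FPKM in SGCs and 0.706, 0.878, 0.935 and 1.02 FPKM in DRG. The ranges did not overlap, but 2 SGC libraries lay close to the highest DRG library. Its log2 difference was 0.68 ± 0.19 (SE, 95% interval 0.25 to 1.11, n = 4 each, limma adjusted p = 0.0182). The alternatives that ended this call included the fit without a filter (limma adjusted p = 0.0575) and that without DRG replicate 1 (limma adjusted p = 0.0613). In every SGC library Slc1a3 exceeded Slc1a2, by a ratio of 11.6 to 28.9 in SGCs and 13.5 to 16.8 in DRG on the length-corrected scale. Glul (chromosome 1, 153899944 to 153909723), glutamine synthetase, stood at 161, 141, 152 and 154 FPKM in SGCs and 64.5, 75.2, 69.9 and 82.1 FPKM in DRG. It rose by 1.05 ± 0.11 (SE, 95% interval 0.79 to 1.31, n = 4 each, limma adjusted p = 0.000163).

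Slc38a3 (chromosome 9, 107650634 to 107669530), a glutamine transporter through which brain astrocytes release glutamine, did not reach the filter. It was listed at 0 in 2 of 4 SGC libraries and in 2 of 4 DRG libraries and stood at 0.0379 FPKM or less in the other SGC libraries and 0.110 FPKM or less in the other DRG libraries. An exact two-sided permutation test over the 4 and 4 libraries gave p = 0.886, where 0.0286 is the smallest p this design allows. Aqp4 (chromosome 18, 15389496 to 15410982), the water channel of astrocyte endfeet, stood at 22.2, 16.4, 22.8 and 19.3 FPKM in SGCs and 5.11, 6.02, 5.96 and 7.06 FPKM in DRG. Its rise of 1.58 ± 0.15 (SE, 95% interval 1.23 to 1.93, n = 4 each, limma adjusted p = 8.95e-05) was the largest point estimate of the 7, with an interval that overlapped those of 5 of the others apart from Slc1a2.

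In naive SGCs the order of mean levels was Atp1b2, Glul, Slc12a2, Kcnj10, Slc1a3, Aqp4, Slc1a2 and Slc38a3, and no neighbours in that order overlapped over the 4 libraries. The 4 surgery groups of SGCs had the same order, with overlap between Atp1b2 and Glul in both groups at 3 days. In DRG the order was also the same, but Atp1b2 overlapped Glul and Slc12a2 overlapped Kcnj10. Glul, Slc1a3, Slc1a2 and Aqp4 share part of their span with other annotated genes, on the opposite strand for Slc1a2 and Aqp4, on the same strand for Slc1a3 and on both for Glul. The sources used here do not say whether counting used strand, so reads of such partners cannot be told apart. Levels of the naive and the surgery tables were scaled separately and were set against each other only by their order.

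**Figure D1:**
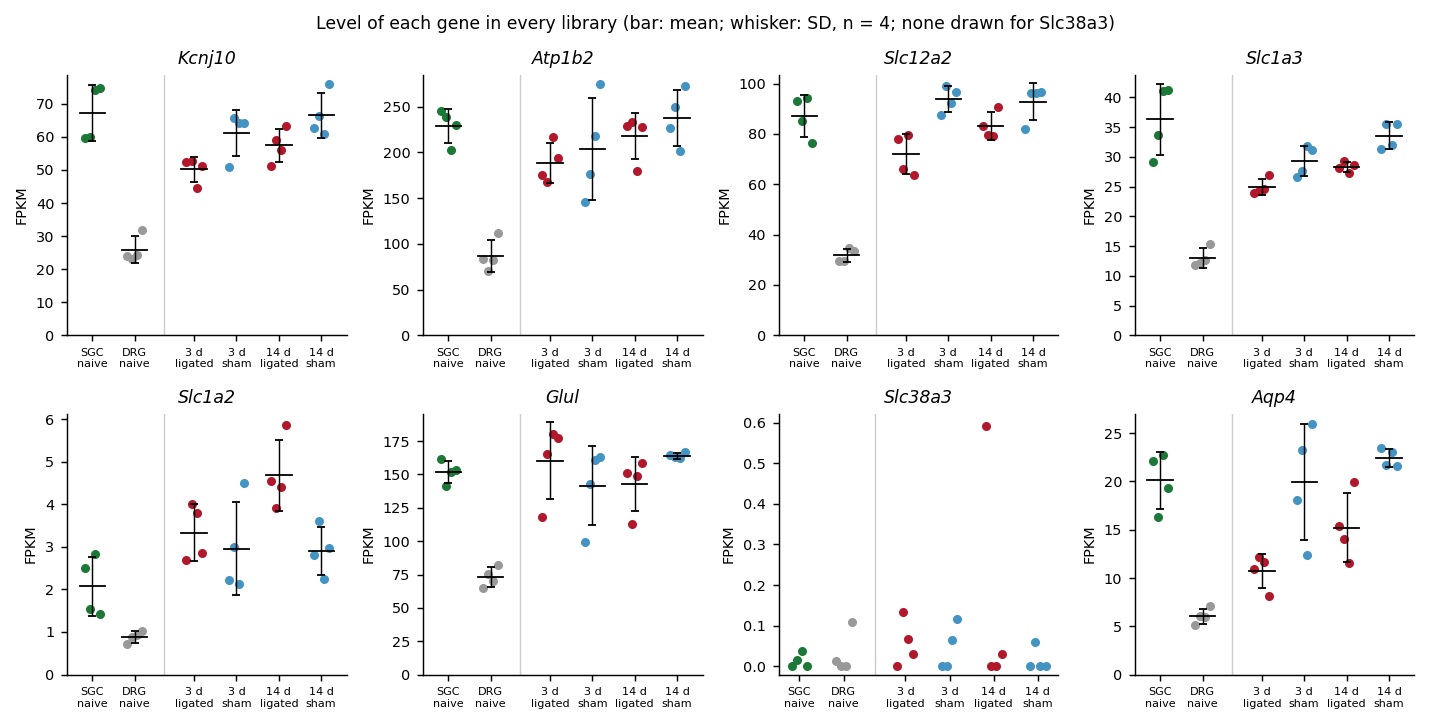
FPKM of the 8 genes (vertical axes, from 0, with a different scale per gene) in every library of the naive table, left of the grey line, and of the SGC surgery table, right of it, scaled separately. Points are libraries, bars the mean and whiskers the SD (n = 4, none drawn for Slc38a3); for 7 genes the naive SGC libraries lie above every DRG library, while Slc38a3 stays at 0.592 FPKM or less.

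A list of 55 further genes of the same processes set the 8 in context. Of its 46 genes tested in the naive comparison, 16 rose, 16 fell and 14 were not called, with a median of −0.11, beside backgrounds of 16.9% called higher and 27.9% called lower. The potassium and chloride genes split into 6 higher and 10 lower of 19, and the glutamate and glutamine genes into 4 higher and 5 lower of 14. Of the 13 genes for water, volume and anchoring, 6 rose and 1 fell. Among the largest falls were those of Fxyd7 (−5.32) and Fxyd2 (−3.72), both regulators of the sodium pump. The vesicular glutamate transporters Slc17a6 and Slc17a7 fell by 3.64 and 3.37, the potassium channel Kcnk1 by 2.86, the aspartate aminotransferase Got1 by 2.43 and the pump subunit Atp1b1 by 2.09. The glutamine transporter Slc38a1 fell by 2.19, the water channel Aqp1 by 1.66, and the chloride channel Clcn2 rose by 1.49, all by limma at an adjusted p under 0.05.

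Kcnj16, whose product joins Kcnj10 in mixed channels and which was chosen after its values were seen, stood at 10.1 ± 1.64 FPKM in SGCs and 3.80 ± 0.9997 in DRG and rose by 1.22 (limma adjusted p = 0.000974).

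**Figure D2:**
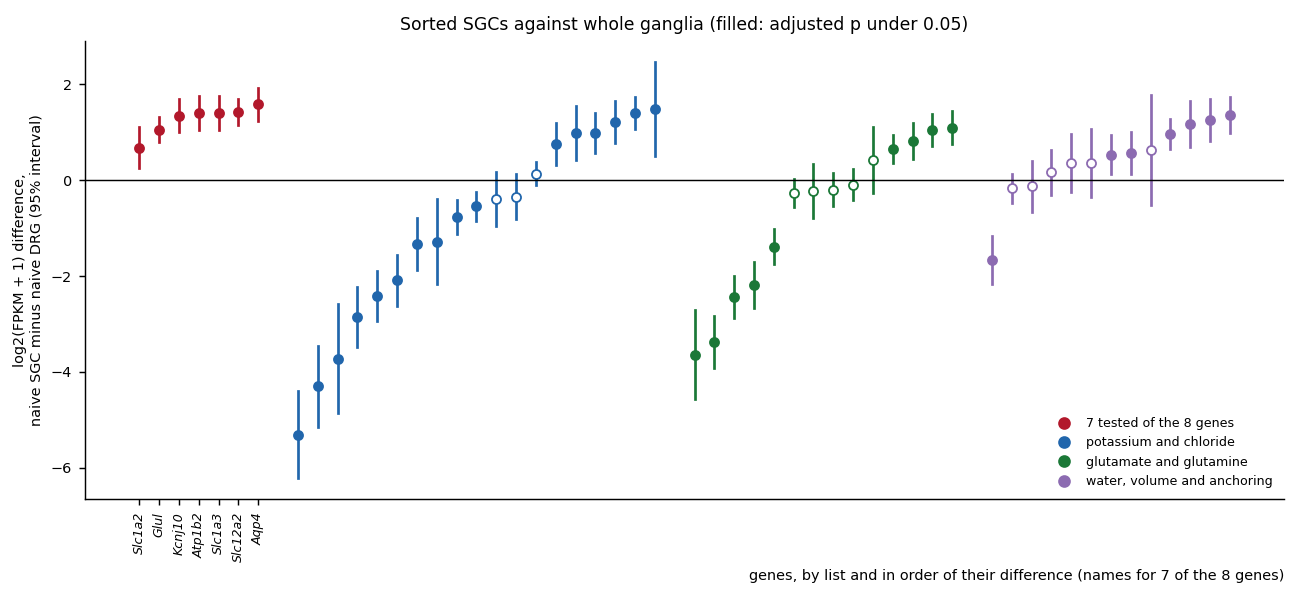
Log2(FPKM + 1) difference of naive SGCs minus naive DRG (vertical axis) for 7 of the 8 genes and 46 genes of 3 lists, each with its 95% interval. Filled points are called at a limma adjusted p under 0.05; all 7 genes lie above 0, between 0.68 and 1.58, while the lists hold called genes in both directions.

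The second comparison asks whether ligation of the sciatic nerve changed these genes in SGCs at 3 days. None of the 7 tested genes was called by limma, beside a background of 0.0646% of 13924 genes, and none passed an adjusted p of 0.05 in the authors' deposited table (here turned to ligated over sham), where 0.498% of 17662 genes were higher and 0.515% lower after ligation. At an unadjusted p under 0.05, 3 of the 7 were lower by limma (Kcnj10, Aqp4 and Slc12a2), and none was higher, beside 4.87% and 4.24% of all genes. The libraries of Aqp4 and Slc12a2 did not overlap, in the lower direction, beside 2% of all genes. The median of the 7 differences was −0.22, against −0.01 over all genes.

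Aqp4 showed the largest difference. Its 4 ligated libraries held 10.9, 12.1, 11.7 and 8.18 FPKM, against 18.1, 23.3, 12.4 and 26.0 FPKM in the sham libraries. All ligated libraries lay below all sham libraries, although the lowest sham library nearly met the highest ligated library. The log2 difference was −0.80 ± 0.22 (SE, 95% interval −1.26 to −0.34, n = 4 each, limma adjusted p = 0.279), and the authors' deposited table gave −0.89 with an adjusted p of 0.0722. Slc12a2 stood at 78.1, 66.3, 79.7 and 63.9 FPKM after ligation, against 87.6, 99.1, 92.1 and 96.7 FPKM after sham surgery. Again no libraries overlapped, and the log2 difference was −0.38 ± 0.11 (SE, 95% interval −0.62 to −0.15, n = 4 each, limma adjusted p = 0.314), with −0.38 and an adjusted p of 0.152 in the authors' deposited table.

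Kcnj10 stood at 52.5, 52.6, 44.5 and 51.2 FPKM after ligation, against 50.9, 65.8, 64.3 and 64.1 FPKM after sham surgery. The groups overlapped only through sham replicate 1, which lay among the ligated libraries. The log2 difference was −0.28 ± 0.12 (SE, 95% interval −0.54 to −0.02, n = 4 each, limma adjusted p = 0.513). Slc1a3 stood at 23.9, 24.3, 24.6 and 26.9 FPKM after ligation, against 26.6, 27.7, 31.8 and 31.1 FPKM after sham surgery. Its ranges met at 1 library on each side, and the log2 difference was −0.22 ± 0.11 (SE, 95% interval −0.45 to 0.01, n = 4 each, limma adjusted p = 0.578).

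Glul stood at 118, 165, 180.2 and 178 FPKM after ligation, against 99.2, 143, 161 and 163 FPKM after sham surgery, with replicate 1 the lowest in both groups. Its log2 difference was 0.19 ± 0.17 (SE, 95% interval −0.19 to 0.56, n = 4 each, limma adjusted p = 0.804). Slc1a2 stood at 2.69 to 3.99 FPKM after ligation and 2.11 to 4.49 after sham surgery, a difference of 0.16 (95% interval −0.31 to 0.63). Atp1b2 stood at 167 to 217 FPKM after ligation and 146 to 275 after sham surgery, and its difference of −0.08 (95% interval −0.45 to 0.30) changed sign when sham replicate 4 was left out. Slc38a3 stood at 0 to 0.134 FPKM after ligation and 0 to 0.117 after sham surgery (exact two-sided permutation p = 0.743).

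At 14 days none of the 7 tested genes was called by limma, beside a background of 0.00718% of the 13924 genes. At an unadjusted p under 0.05, 1 gene was higher (Slc1a2) and 2 were lower (Slc1a3 and Aqp4), beside 2.42% and 2.74% of all genes. The libraries did not overlap for Slc1a2, which was higher, and for Glul, Slc1a3 and Aqp4, which were lower, beside 1.69% and 2.38% of all genes in these directions. Among the 8 genes, only Slc1a2 passed an adjusted p of 0.05 in the authors' deposited table, and it was higher after ligation, where 0.641% of 19185 genes were called higher and 0.412% lower.

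Slc1a2 stood at 4.54, 3.90, 4.41 and 5.86 FPKM after ligation, against 2.82, 3.61, 2.24 and 2.97 FPKM after sham surgery. Every ligated library exceeded every sham library. By limma the log2 difference was 0.54 ± 0.22 (SE, 95% interval 0.07 to 1.01, n = 4 each, adjusted p = 0.884), whereas the authors' deposited table gave 0.73 ± 0.20 (SE) with an adjusted p of 0.0370. Slc1a3, the more abundant transporter of the family, stood at 28.1, 29.2, 27.3 and 28.7 FPKM after ligation, against 31.3, 35.5, 32.0 and 35.6 FPKM after sham surgery, a difference of −0.24 ± 0.11 (SE, 95% interval −0.47 to −0.00, n = 4 each, limma adjusted p = 0.967). The ratio of Slc1a3 to Slc1a2 within a library, which library scaling does not touch, was 4.89 to 7.49 after ligation and 9.84 to 14.3 after sham surgery at 14 days. At 3 days it was 6.09 to 9.42 after ligation and 6.92 to 15.04 after sham surgery, so that the groups overlapped at 3 days and not at 14. This ratio was formed after the values were seen and was not tested. Its separation at 14 days follows from the opposite separations of Slc1a3 and Slc1a2 and is no further result.

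Aqp4 stood at 15.4, 14.0, 11.6 and 20.0 FPKM after ligation at 14 days, against 23.5, 21.7, 23.0 and 21.6 FPKM after sham surgery. The sham libraries lay close together and all above the ligated libraries, whose spread was wider. The log2 difference was −0.55 ± 0.22 (SE, 95% interval −1.02 to −0.09, n = 4 each, limma adjusted p = 0.884), and −0.52 with an adjusted p of 0.206 in the authors' deposited table. Glul stood at 151, 113, 149 and 159 FPKM after ligation and within 162 to 167 FPKM after sham surgery, a difference of −0.21 (95% interval −0.58 to 0.16). Kcnj10 stood at 51.3, 59.2, 56.1 and 63.3 FPKM after ligation, against 62.8, 66.4, 61.0 and 76.2 FPKM after sham surgery, and overlapped, with a difference of −0.21 (95% interval −0.47 to 0.06). Slc12a2 stood at 79.0 to 90.9 FPKM after ligation and 81.9 to 96.5 after sham surgery, and Atp1b2 at 180.1 to 233 and 202 to 273. Slc38a3 was listed at 0 in 2 ligated libraries and stood at 0.592 FPKM in ligated replicate 1 and 0.0310 in ligated replicate 4, against 0 to 0.0602 FPKM after sham surgery (exact two-sided permutation p = 0.714).

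Markers of injured neurons separated the ligated from the sham SGC libraries. All 5 injured neuron markers had a higher mean after ligation, and their sum was 1241 to 3024 FPKM in ligated and 50.7 to 257 in sham libraries at 3 days, and 548 to 1440 and 49.9 to 136 at 14 days. None of the 5 was at 0 in a ligated library, and Sprr1a was at 0 in 1 sham library at 3 days. The 6 general neuron markers overlapped, at a sum of 314 to 596 FPKM in ligated and 140 to 625 in sham libraries at 3 days. At 14 days they summed to 217 to 625 FPKM in ligated and 170 to 394 in sham libraries, and overlapped too. The sum of 5 endothelial markers was 200.5 to 382 FPKM in ligated and 134 to 266 in sham libraries at 3 days, and 163 to 315 and 114 to 228 at 14 days, so that the groups overlapped at both days. The 5 macrophage markers summed to 1.48 to 11.5 FPKM in ligated and 4.65 to 8.46 in sham libraries at 3 days, and to 6.54 to 22.7 and 1.45 to 10.9 at 14 days, and overlapped too. The 9 satellite glial markers summed to 14047 to 20411 FPKM in ligated and 15044 to 20163 in sham libraries at 3 days, and to 16718 to 21819 and 19956 to 21995 at 14 days, so they overlapped. The part of these markers in the differences of the 8 genes was not tested.

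The width of the intervals sets the size of change that these data exclude. The 95% half-widths at either day were 0.23 to 0.47 on the log2(FPKM + 1) scale for the 7 genes, against a median of 0.70 over all genes tested. At 3 days the intervals excluded a 2-fold rise for 7 of 7 genes and a 2-fold fall for 6 of 7, the exception being Aqp4. At 14 days they excluded a 2-fold rise for 6 of 7, all but Slc1a2, and a 2-fold fall for 6 of 7, all but Aqp4. The same counts held with intervals widened to cover all 14 gene and day combinations together (Bonferroni). All these counts are for 2-fold changes in FPKM + 1. For Slc1a2, at a few FPKM, a 2-fold change in FPKM is smaller on this scale, and these counts do not cover it.

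For Kcnj10 the change in FPKM + 1 after ligation lay between −31.3% and −1.12% at 3 days and between −27.8% and 3.89% at 14 days. With the intervals widened over the 14 combinations, the limits were −38.7% to 10.7% at 3 days and −35.5% to 16.3% at 14 days. A loss of more than 38.7% at 3 days was thus outside the widened interval. For Glul the 95% limits were −12.2% to 47.3% at 3 days and −33.2% to 11.96% at 14 days. For Slc1a3 they were −27.0% to 0.908% and −27.8% to −0.141%, and for Atp1b2 −27.0% to 22.8% and −29.3% to 18.9%. For Slc12a2 they were −34.9% to −9.76% at 3 days and −23.7% to 5.74% at 14 days.

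The limits were wider for the 2 remaining genes. Aqp4 lay between −58.2% and −20.8% at 3 days and between −50.6% and −6.22% at 14 days, and the widened intervals ran from −65.8% to −3.31% and from −59.5% to 14.4%. Slc1a2, at a few FPKM, lay between −19.3% and 54.4% at 3 days and between 5.01% and 101% at 14 days. With a pseudocount of 0.1, which bears on a gene this low, the limits for Slc1a2 were −23.9% to 76.5% at 3 days and 4.49% to 142% at 14 days. Wald intervals from the authors' deposited table were of like width, at −32.2% to 0.703% for Kcnj10 at 3 days, −62.6% to −21.8% for Aqp4 at 3 days and 25.9% to 119.6% for Slc1a2 at 14 days. These limits concern transcript level in the sorted libraries and not protein or current.

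**Figure D3:**
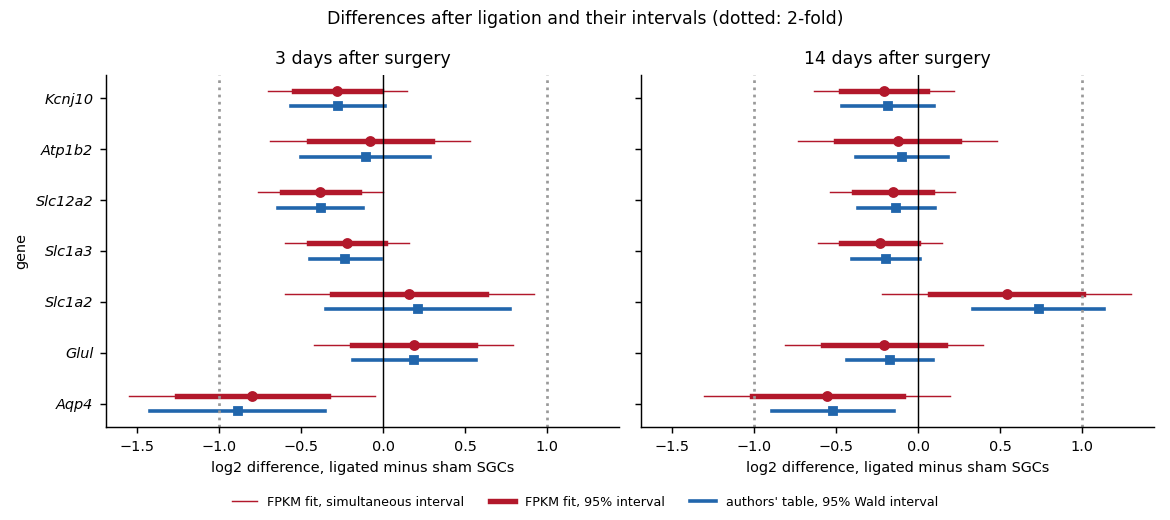
Log2 difference of ligated minus sham SGCs at 3 days (left) and 14 days (right) for 7 genes. Red points are limma on log2(FPKM + 1) with the 95% interval (thick) and the interval widened over 14 combinations (thin). Blue squares are the authors' deposited table with its 95% Wald interval. Only for Aqp4 does an interval reach a 2-fold fall (dotted, −1), and only for Slc1a2 does one reach a 2-fold rise.

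The effects at the 2 days were compared in the same fit. None of the 7 genes was called by limma between the days in the effect of ligation, in ligated libraries or in sham libraries, beside backgrounds of 0.00718%, 0.00718% and 0% of the 13924 genes. None had an unadjusted p under 0.05, beside 4.19%, 6.24% and 4.99% of all genes. The largest differences in effect, 14 days minus 3 days, were −0.40 for Glul (95% interval −0.92 to 0.13) and 0.38 for Slc1a2 (−0.28 to 1.04). Kcnj10 differed by 0.07 (−0.30 to 0.44) and Aqp4 by 0.24 (−0.41 to 0.90). In ligated libraries at 14 days against 3 days, the difference was 0.46 for Aqp4 (95% interval −0.01 to 0.92, limma adjusted p = 0.798), and the libraries of Slc1a3 did not overlap, at 27.3 to 29.2 FPKM against 23.9 to 26.9, beside 2.33% of all genes in that direction. The 3 contrasts share libraries and are not independent.

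Over the 16 SGC surgery libraries, Kcnj10 deviated from its mean by 0.16 on average on the centred log2(FPKM + 1) scale. Of the 4400 genes at 5 FPKM or more in all 16, the profiles most like it included those of Ttyh1, a membrane protein that also serves as a satellite glial marker, and Pxmp4, a peroxisomal membrane protein, each with a mean absolute difference of 0.08 from Kcnj10. Slc1a3 was the nearest of the other members at 0.09, and Glul lay at 0.21. The profiles most like that of Glul, which deviated by 0.18, were those of Tmed10 (0.12), Cyb5b (0.12) and Sparc (0.13).

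**Figure D4:**
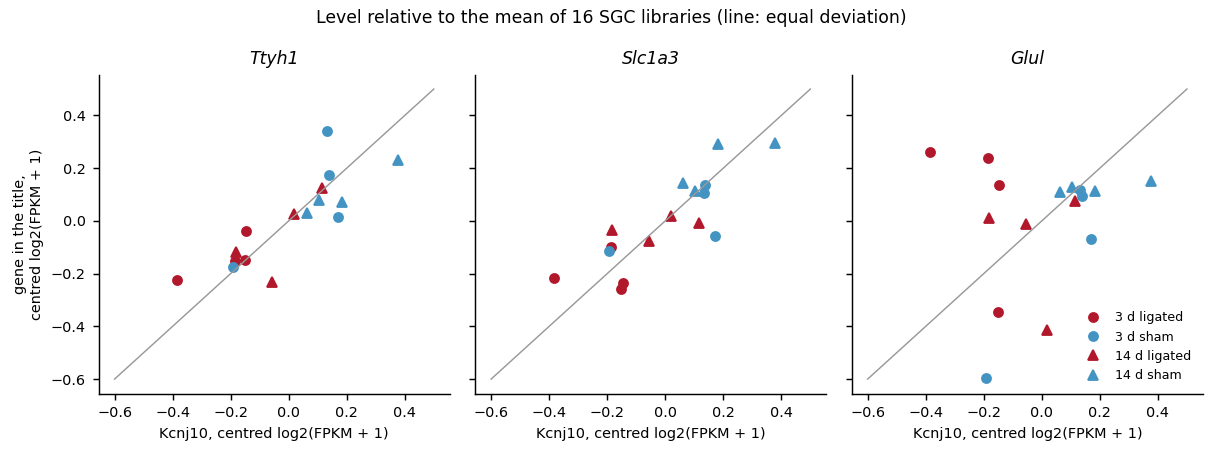
Centred log2(FPKM + 1) of Ttyh1, Slc1a3 and Glul (vertical axes) against that of Kcnj10 (horizontal axis) in the 16 SGC surgery libraries. Points are libraries, red for ligated and blue for sham, circles for 3 and triangles for 14 days; Ttyh1 and Slc1a3 lie near the line of equal deviation and Glul does not.

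None of the 46 tested genes of the 3 further lists was called by limma at either day, beside 0.0646% and 0.00718% of all genes. At an unadjusted p under 0.05, 2 were higher and 4 lower at 3 days, beside 4.24% and 4.87% of all genes, and none were higher and 3 lower at 14 days, beside 2.42% and 2.74%. At 3 days the largest differences included −1.27 for Fxyd2 and 1.03 for the aquaporin Aqp9. Others were 0.95 for the chloride exporter Slc12a5 and 0.66 for the volume-regulated channel Lrrc8a. For these genes the ligated and sham libraries overlapped and the 95% intervals included no change. Their limma adjusted p was 0.562 or more. The part of neuron RNA in the Fxyd2 difference was not tested. Stk39, a kinase that regulates cation-chloride cotransporters, was also among the largest at 1.02 (limma adjusted p = 0.253). Stk39 stood at 15.5 to 39.7 FPKM after ligation and 8.82 to 12.4 after sham surgery, whereas the authors' deposited table gave a log2 difference of only 0.26 (adjusted p = 0.860). At 14 days the largest differences included 1.59 for Fxyd7, −1.22 for Aqp11, −0.57 for Kcnk2, 0.56 for Aqp9 and −0.55 for Fxyd2. Their limma adjusted p was 0.884 or more, and of these genes only Kcnk2 had groups that did not overlap. In the authors' deposited table the neutral amino acid transporter Slc1a5 was lower at 3 days (−0.37, adjusted p = 0.0143), beside 0.515% of 17662 genes. Slc1a5 was chosen after its values were seen, and stood at 36.9 to 41.7 FPKM after ligation and 49.2 to 56.0 after sham surgery. At 14 days its groups overlapped, at 35.5 to 131 FPKM after ligation and 48.4 to 55.6 after sham surgery.

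Between days, Aqp11 had the largest difference in the effect of ligation (−1.85, 14 days minus 3 days), followed by Stk39 (−1.02). Fxyd7 (0.93) and Fxyd2 (0.72) came next, and none of them was called by limma (adjusted p = 0.9995 each).

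The last comparisons asked about the same genes in isolated neurons 8 days after partial ligation. The authors' deposited table of neurons gives mean normalised signals of 2367 for Glul and 837 for Slc12a2, against 31.5 for Slc1a2, 17.97 for Aqp4, 14.1 for Atp1b2, 1.93 for Slc1a3, 0.200 for Kcnj10 and 0.0600 for Slc38a3. These signals are not corrected for gene length and do not rank the genes against each other, and only the first 2 genes are in the neuron FPKM table. Of the 9 satellite glial markers 3 were in the neuron FPKM table, and their sum was 0.657 to 28.7 FPKM, whereas the 5 myelinating Schwann markers there summed to 730 to 2853 FPKM. The 2 erythrocyte markers summed to 297 to 18900.5 FPKM over the neuron libraries. The part of other cells in the Glul and Slc12a2 values was not tested.

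Neither Glul nor Slc12a2 was called by limma in ligated against sham neurons, beside 0.28% of 12145 genes, and neither had an unadjusted p under 0.05, beside 3.58% of all genes. Glul stood at 50.7, 37.0 and 59.1 FPKM in ligated males and 37.3, 68.9 and 55.4 in sham males. In females it stood at 67.6, 45.9 and 71.5 FPKM after ligation and 39.8, 44.1 and 58.6 after sham surgery. The groups overlapped in both sexes, and the difference over both was 0.12 ± 0.22 (SE, 95% interval −0.34 to 0.58, n = 6 each, limma adjusted p = 0.999). Slc12a2 stood at 3.35, 3.52 and 5.39 FPKM in ligated males and 10.6, 3.48 and 5.08 in sham males, and at 3.06, 7.15 and 4.16 FPKM in ligated females and 3.81, 6.71 and 6.05 in sham females. It overlapped too, with a difference of −0.33 ± 0.31 (SE, 95% interval −0.97 to 0.32, n = 6 each, limma adjusted p = 0.999). The authors' deposited table gave 0.08 for Glul (adjusted p = 0.915) and −0.42 for Slc12a2 (unadjusted p = 0.0327, adjusted p = 0.389).

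The effect of ligation did not differ detectably between the sexes, at −0.48 for Glul (95% interval −1.40 to 0.44, male minus female) and −0.24 for Slc12a2 (−1.53 to 1.05), where 0% of genes were called by limma and neither gene was among the 1.07% with an unadjusted p under 0.05. On the ligated side Glul stood at 50.6, 38.7, 34.3 and 46.8 FPKM, against 37.2, 71.6, 37.7 and 27.5 on the opposite side, a difference of 0.04 (95% interval −0.52 to 0.61). Slc12a2 stood at 3.59, 5.599, 5.08 and 3.80 FPKM on the ligated side and 4.71, 13.0, 3.01 and 7.32 on the opposite side, a difference of −0.40 (95% interval −1.19 to 0.39). Neither was called by limma, beside 0.667% of 12145 genes, and neither was among the 9.85% with an unadjusted p under 0.05. The intervals in neurons were wider than in SGCs, with half-widths of 0.46 and 0.65 for ligated against sham.

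**Figure D5:**
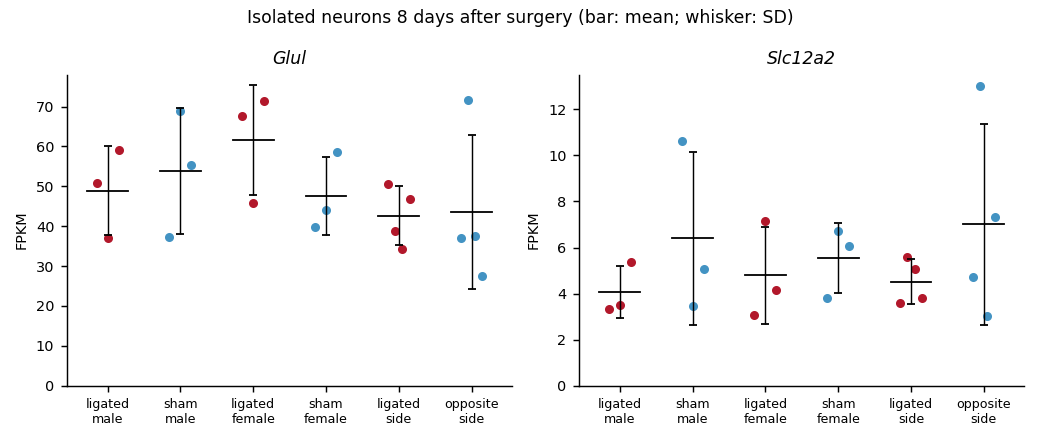
FPKM of Glul (left) and Slc12a2 (right) in the 20 neuron libraries 8 days after surgery, from 0, by surgery and sex and by side. Points are libraries, bars the mean and whiskers the SD (n = 3 or 4); all ligated groups (red) overlap their sham or opposite-side group (blue).

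Of the 39 further genes tested in neurons none was called by limma in ligated against sham neurons, between the sexes or between the sides, beside 0.28%, 0% and 0.667% of all genes. In ligated against sham neurons 4 had an unadjusted p under 0.05, beside 3.58% of all genes. The largest differences there were −1.13 for the potassium-chloride cotransporter Slc12a4 (limma adjusted p = 0.697) and 0.79 for the glutamine transporter Slc38a1 (limma adjusted p = 0.999), followed by Slc1a4 (0.45), Wnk1 (−0.38), Slc17a7 (−0.37) and Slc17a6 (0.36). The authors' deposited table called Slc1a4, a neutral amino acid transporter, higher (0.57, adjusted p = 0.0164) and Fxyd2 lower (−0.32, adjusted p = 0.0281) after ligation, beside 1.38% of 13926 genes higher and 0.323% lower. On the ligated side against the opposite side, 4 had an unadjusted p under 0.05 by limma, beside 9.85% of all genes: Dmd, which codes for dystrophin, at −1.25 (adjusted p = 0.363), Slc1a4 at 0.70 (adjusted p = 0.304), Fxyd2 at −0.60 (adjusted p = 0.165) and Slc17a6 at 0.45 (adjusted p = 0.466). Other large differences there were 0.85 for the syntrophin Sntb1, −0.71 for the amino acid transporter Slc38a7 and −0.70 for Slc12a4, with limma adjusted p of 0.510 or more. Between the sexes, male minus female, large differences in the effect of ligation included those of the channel Kcnk2 (1.18), Aqp11 (1.15), Mlc1 (0.72), the osmosensitive channel Trpv4 (0.69) and the kinase Wnk1 (−0.67), with a limma adjusted p of 1 and none at an unadjusted p under 0.05.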

How the data were processed

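RNA sequencing libraries of naive SGCs and DRG, of SGCs after surgery and of neurons after surgery were deposited by the authors as 3 tables of FPKM, each scaled on its own, and the naive table is written with decimal commas. The submitters' processing notes name STAR, SAMtools, Cufflinks, DESeq2 and the build mm10, with no versions, roles or order, and strandedness is not given in the sources used here. No deposited table holds raw counts, so the depth of a library is unknown; 11441 to 13173 genes reached 1 FPKM in naive libraries, 11452 to 12775 in SGC surgery libraries and 10225 to 11004 in neuron libraries. Identical libraries were not found.

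Lines that shared an identifier (121, 121 and 20 in the 3 tables) were summed. Genes that reached 1 FPKM in at least 4 libraries (3 in neurons, the smallest group) were tested with limma 3.58.1 (R 4.3.3, trended prior) on log2(FPKM + 1), with all groups of a table in 1 fit and Benjamini-Hochberg adjustment over all genes tested; the pseudocount shrinks the differences of low genes. The code was tested on simulated data. Genes that did not reach the filter were tested by an exact permutation test over libraries. Neuron columns could be tied to groups but not to numbered samples.

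The authors' deposited comparison tables, per the file headers, give a mean normalised signal, a log2 fold change, its standard error (a score with no fixed range) and p-values, raw and adjusted. Their signs were opposite to the FPKM differences for 160 of 165, 182 of 188 and 224 of 224 genes past 0.05, so they were turned to ligated over sham, with Wald intervals added. A table whose comparison is not named was not used.

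The 8 genes, the lists of 55 further genes and 47 markers and the tests were chosen with earlier results of these data known. From the lists, the text names the called genes, up to 12 by size, and otherwise the 6 largest differences in each comparison. Some genes that this rule names are not reported here. Alternatives were a pseudocount of 0.1, no filter, quantile normalization, median ratio scaling, a fit of only the groups compared, array weights, a replicate block and leaving out each library.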

Additional observations from a re-analysis of the deposited data

Results flagged for a closer look

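Each library's value was set on the log2(FPKM + 1) scale against the others of its group, in 52 groups of 4 libraries. In 8 groups the gap of the highest or lowest library to its nearest other exceeded Dixon's critical share of the range (95% level). For normally distributed values, chance alone gives about 1 such group in 20. Kcnj10 had 3 of them: 3 day ligated replicate 3 at 44.5 FPKM, where the others held 51.2 to 52.6, 3 day sham replicate 1 at 50.9, where the others held 64.1 to 65.8, and naive DRG replicate 4 at 31.9, where the others held 23.0 to 24.3. The 3 day difference of Kcnj10 was −0.22 without that ligated library and −0.36 without that sham library, against −0.28 with all. Atp1b2 stood at 180.1 FPKM in 14 day ligated replicate 3, where the others held 228 to 233. Slc12a2 stood at 81.9 FPKM in 14 day sham replicate 1, where the others held 96.3 to 96.5.

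Slc38a3 had 3 of them, all near 0 and with libraries listed at 0, so the chance rate given above does not apply to them. It stood at 0.592 FPKM in 14 day ligated replicate 1, where the others held 0.0310 or less, at 0.0602 in 14 day sham replicate 2, where the others were listed at 0, and at 0.110 in naive DRG replicate 4, where the others held 0.0137 or less.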

How the results depend on the processing

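The count of members called was 7 in naive SGCs under most alternatives and 6 where Slc1a2 lost its call, and it was 0 in every other comparison under all alternatives that were run. Slc1a2 lost its naive call without a filter on low values (adjusted p = 0.0575) and without DRG replicate 1 (adjusted p = 0.0613), and leaving out each library in turn gave adjusted p of 0.0129 to 0.0613; the cause was not tested. With the replicate number as a paired term (replicate block), Slc1a2 also lost its naive call, at the same difference of 0.68 and an adjusted p of 0.0502, and no other member's call changed. Same-numbered libraries of the naive groups had correlated deviations of 0.00273 to 0.186, those at 3 days −0.0758 to 0.00307 and those at 14 days −0.0384 to 0.0687, so the numbers were not taken as pairs, and 3 of 12 libraries matched their own number best. No paired analysis was possible in neurons because their columns carry no replicate numbers. Small differences that were not called changed sign. The effect at 14 days minus 3 days became 0.00937 for Slc1a3 and 0.0336 for Atp1b2 under quantile normalization and 0.00544 for Slc1a3 with array weights, and Slc1a2 in sham SGCs at 14 days against 3 days became −0.0473 under median ratio scaling. Leaving out 1 library at a time gave −0.225 to 0.0777 for Atp1b2 at 3 days, −0.0548 to 0.0289 for Slc1a3 and −0.203 to 0.0996 for Atp1b2 in the effect between days, and −0.0922 to 0.181 for Slc1a2 and −0.0508 to 0.0397 for Slc12a2 between sham groups. In neurons it gave −0.541 to 0.146 for Slc12a2 between the sexes and −0.139 to 0.310 for Glul between the sides. The causes were not tested. Quantile normalization moved the median of all genes in the naive comparison to 0.16, from −0.12, and all 7 members stayed higher. With no counts deposited, the depth that limits Slc1a2 and Slc38a3 is unknown.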
